A study of Monodelphis domestica with 8 samples.

Results

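In the brain of the opossum fetus, 751 autosomal H3K4me3 peaks each carried 2 or more separate H3K9Ac peaks and no H3K27me3. These split peaks were chosen by measured positions alone. An H3K4me3 peak on chromosomes 1 to 8 had to be under 5000 bp wide, share at least 1 bp with 2 or more peaks of the H3K9Ac list, and share none with the H3K27me3 list. They made up 4.27% of the 17575 H3K4me3 peaks that met the conditions on chromosome, width and H3K27me3, and 9.45% of the 7945 such peaks that carried any H3K9Ac (exact 95% interval 8.82% to 10.1%). The whole list held 23987 H3K4me3 peaks, 22086 of them on these chromosomes. Width, the number of H3K9Ac peaks and the absence of H3K27me3 are therefore conditions of the choice. Everything measured on the H3K4me3 and H3K9Ac peaks of these regions is given as a description, without a test.

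The chromatin came from fetal brain of the laboratory marsupial Monodelphis domestica, the gray short-tailed opossum, from female fetuses on embryonic day 13, and the labels name no treatment and no control group. Each preparation pooled 2 sister fetuses, was digested with micrococcal nuclease and was shared among antibodies to 4 marks, which gave 8 libraries, 2 for each mark. One pool came from an LL2 mother crossed with an LL2 father, the other from an LL1 mother crossed with an LL2 father. Both libraries of a mark are represented by the same peak list, so each region has a single set of values and no replicate error. Intervals below are exact binomial intervals for shares and exact order-statistic intervals for medians. They cover the counting of regions only. The lists contain neither read counts nor gene names, so depth is unknown and the labelled tissue could not be checked against marker genes.

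H3K4me3 is deposited by the SET1 and MLL methyltransferases at active and poised promoters, and H3K9Ac is added by acetyltransferases such as GCN5 and PCAF at promoters in use. At an active start site the modified nucleosomes usually flank a short stretch depleted of nucleosomes. H3K27me3, laid down by a Polycomb complex, is found at repressed developmental genes, and H3K9me3 is typical of heterochromatin. Brain tissue holds many cell types. A region with 2 H3K9Ac peaks may carry both in the same cells or each in different cells, and these cannot be told apart in such lists.

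By the rule of choice each region held 2 or more H3K9Ac peaks, and most held a pair with a short interval between them. Such an interval is a stretch that the list does not call, not one shown to lack acetylation. Of the 751 regions, 727 (96.8%) held 2 H3K9Ac peaks and 24 (3.20%) held 3, the highest number seen. The widest inner gap, the distance between neighbouring H3K9Ac peaks of the same H3K4me3 peak, had a median of 147 bp (132 to 161 bp, n = 751). Its lowest value was 1 bp, its quartiles were 63.5 bp and 353 bp, and its highest value was 2995 bp. The gap was under 100 bp in 270 regions (35.95%), 100 to under 200 bp in 176 (23.4%), 200 to under 500 bp in 180 (24.0%) and 500 bp or more in 125 (16.6%). In 446 regions (59.4%) the break was thus under 200 bp, and in 31 (4.13%) it was 1000 bp or more. The number of split regions depended on how breaks were called: 305 remained when H3K9Ac peaks less than 200 bp apart were joined, and 144 when only the top-scoring 50% of H3K9Ac peaks were used.

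**Figure D1:**
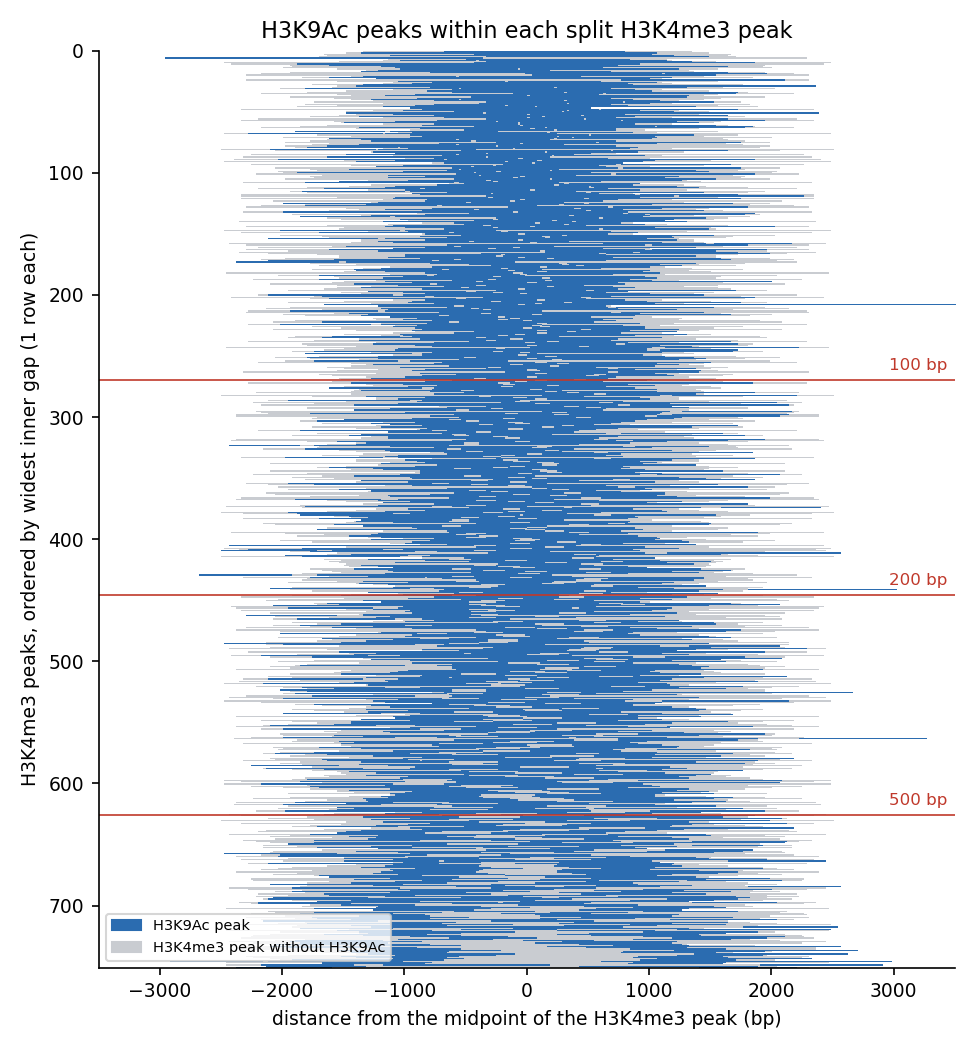
Each of the 751 rows is 1 H3K4me3 peak (grey) with its H3K9Ac peaks (blue), placed by distance in bp from the H3K4me3 midpoint and ordered from the narrowest inner gap (top) to the widest (bottom). Red lines mark gaps of 100, 200 and 500 bp, and by this order the widest grey gap between blue blocks grows from top to bottom. H3K9Ac reaching beyond 3500 bp is not drawn.

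From the first H3K9Ac edge to the last, the acetylated stretch measured a median of 2216 bp (2167 to 2258 bp), within H3K4me3 peaks of a median width of 3539 bp (976 to 4999 bp over all members). The narrowest was chr1:455519960-455520935. The H3K4me3 score had a median of 1132 (1088 to 1189), quartiles of 769.3 and 1517, and a range from 63.7 to 3100. H3K9Ac peaks covered a median of 57.5% of the H3K4me3 width (55.6% to 58.9%). The largest H3K9Ac peak of a region measured a median of 1138 bp (1110 to 1172 bp) and the smallest 780 bp (772 to 785 bp). H3K4me3 began a median of 486 bp before the first H3K9Ac peak and ended 498 bp after the last one. In 624 regions (83.1%) all the acetylation lay inside the H3K4me3 peak, in 114 (15.2%) it reached past 1 edge and in 13 (1.73%) past both.

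The break was near the middle of the H3K4me3 peak but seldom on it. An inner gap has an H3K9Ac peak on each side by construction, which leaves it less room to lie near an edge. How much of the central position this gives was not tested. The middle of the widest gap lay a median of 338 bp (298.5 to 368.5 bp) from the H3K4me3 midpoint, or 19.4% of the way from the midpoint to the edge. A gap covered the midpoint itself in 144 of the 751 regions (19.2%, 16.4% to 22.2%), and an H3K9Ac peak did in 583 (77.6%). In the other 24 regions (3.20%) every H3K9Ac peak was on 1 side of the midpoint. A wide gap meets any given point more often than a narrow one. The share with the gap over the midpoint was 4.07% for gaps under 100 bp, 11.4% for 100 to under 200 bp, 21.1% for 200 to under 500 bp and 60% for 500 bp or more (50.9% to 68.7%, 75 of 125). The distance of the gap from the midpoint showed no order over these 4 classes, with medians of 305.2, 346, 384.5 and 303.5 bp.

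**Figure D2:**
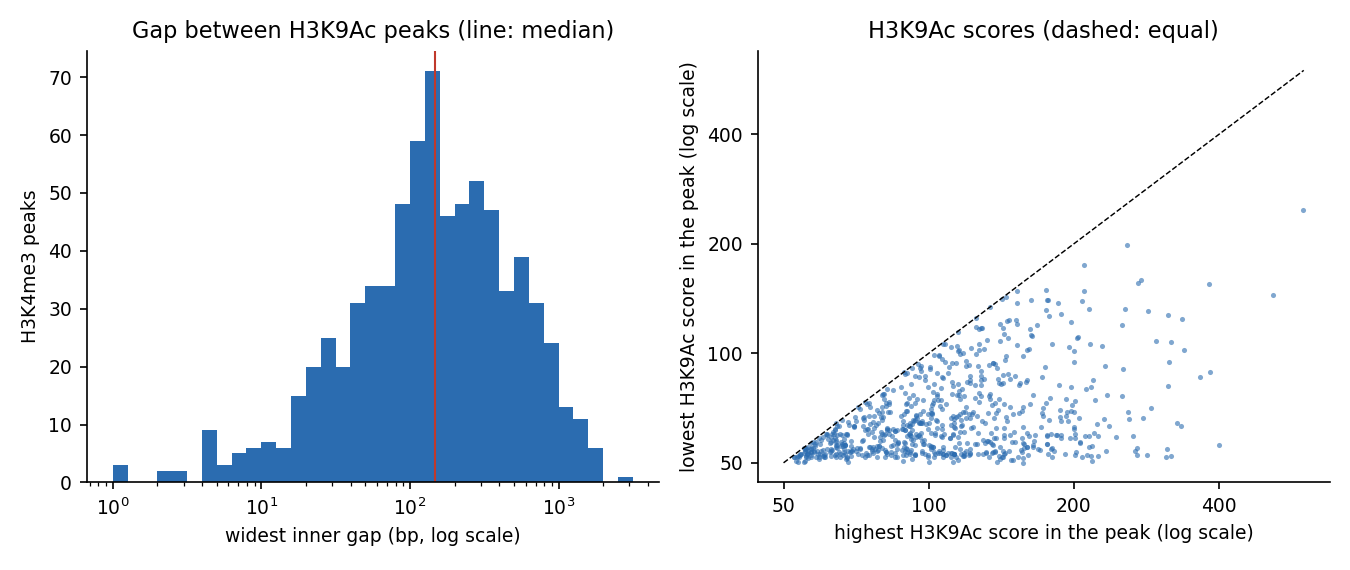
Left, number of H3K4me3 peaks by widest inner gap in bp (log scale), with a line at the median of 147 bp. Right, the lowest against the highest H3K9Ac score within each of the 751 regions (log scales), where the lowest scores crowd just above 50 while the highest reach 596.6.

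The H3K9Ac peaks of a region ranged from nearly equal to several-fold different in score. The score is the authors' value for each peak and was used only within a list, whose lowest H3K9Ac score is 50.01 and whose median is 83.9. The highest-scoring H3K9Ac peak of a region had a median score of 106.4 (102.2 to 111.3) and the lowest-scoring a median of 60.9 (59.9 to 62.4). In 354 regions (47.1%) the weaker peak scored under 60, close to the lowest score that the list holds, and in 50 (6.66%) every H3K9Ac peak did. Of H3K4me3 peaks under the limit with a lone H3K9Ac peak, 18.0% had one scoring under 60. The weaker peak is by construction the lowest of 2 or 3 scores. Highest and lowest score of a region had a Spearman correlation of 0.40 over the 751 regions. Among the 727 regions with 2 H3K9Ac peaks, the stronger scored a median of 1.49 times the weaker (1.44 to 1.55). A ratio of stronger to weaker is 1 or more by construction. Its quartiles over the 727 regions were 1.195 and 2.07. The stronger peak was the wider in 546 (75.1%) and lay nearer the H3K4me3 midpoint in 422 (58.0%). The first H3K9Ac peak along the chromosome outscored the last in 339 of 751 regions (45.1%, 41.5% to 48.8%). The lists give no strand, so first and last do not tell upstream from downstream.

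Regions with a wide gap differed in several measures from those with a narrow one. From gaps under 100 bp to gaps of 500 bp or more, the median H3K4me3 width went from 3260 to 4088 bp. A wide gap needs a wide H3K4me3 peak to hold it. The median H3K4me3 score showed no steady order, at 1116, 1043, 1193 and 1282. Score and gap width had a Spearman correlation of 0.09 over the 751 regions. The median of the stronger H3K9Ac score fell with gap width, at 114.8, 107.2, 104.0 and 92.4 in the 4 classes in order of gap. The weaker score followed the same order, from 63.2 to 57.7, and 56.0% of the regions with gaps of 500 bp or more had a weaker peak under 60, against 42.6% with gaps under 100 bp. Acetylation reached past an H3K4me3 edge in 24% of the regions with the widest gaps (16.8% to 32.5%) and in 11.5% with the narrowest (7.94% to 15.9%). The classes between had no steady order, with 20.45% at 100 to under 200 bp and 16.67% at 200 to under 500 bp. Over the 751 regions gap width and summed H3K9Ac score had a Spearman correlation of -0.13, gap width and H3K4me3 width one of 0.23, and H3K4me3 score and summed H3K9Ac score one of 0.31. Gap width and summed H3K9Ac score come from the same list. The other pairs each set a value of the H3K9Ac list beside one of the H3K4me3 list, from libraries of shared preparations.

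Splitting was more frequent in wider H3K4me3 peaks. A wider peak has more room to overlap 2 H3K9Ac peaks, and how much of the rise this gives was not tested. Among acetylated H3K4me3 peaks without H3K27me3, 2 or more H3K9Ac peaks were present in 1.13% of those 1000 to under 1500 bp wide (8 of 709), 4.14% at 2000 to under 2500 bp (64 of 1545), 12.4% at 3000 to under 3500 bp (144 of 1162) and 23.7% at 4000 to under 4500 bp (124 of 524). In the last class under the limit, from 4500 bp, the share was 34.2% (29.2% to 39.5%, 118 of 345). It was 37.8% (32.0% to 43.9%, 101 of 267) in the first class past it, from 5000 bp, with overlapping intervals on either side of the limit. Wider peaks also had higher H3K4me3 scores, so the acetylated peaks were divided by score into 5 classes of equal size. The share was 2.90% in the lowest class (2.13% to 3.84%) and 20.6% in the highest (18.7% to 22.7%). Within a fixed width this order was not seen throughout. At 2000 to under 3000 bp the share was 8.86% in the lowest class and 4.27% in the highest, with intervals that overlap (5.57% to 13.2% and 1.97% to 7.94%). At 3000 to under 4000 bp it was 9.09% in class 2 (4.79% to 15.3%) and 17.2% in class 5 (14.6% to 20.1%). At 4000 to under 5000 bp it was 19.2% in class 3 (9.63% to 32.5%) and 30.3% in class 5 (26.7% to 34.1%). The lower classes at these widths held few peaks. They gave 20% in class 1 at 3000 to under 4000 bp (3 of 15, 4.33% to 48.1%) and 36.4% in class 2 at 4000 to under 5000 bp (4 of 11, 10.9% to 69.2%), and class 1 at 4000 to under 5000 bp held 0 peaks.

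**Figure D3:**
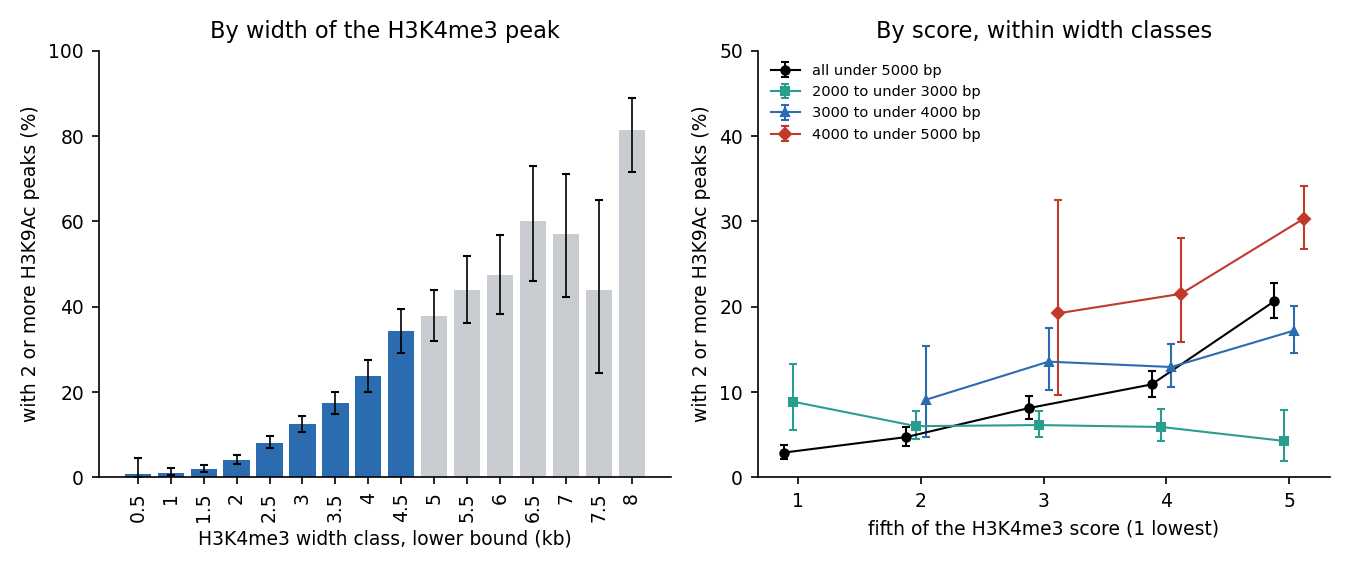
Left, percentage of acetylated H3K4me3 peaks without H3K27me3 that held 2 or more H3K9Ac peaks, by H3K4me3 width in classes of 500 bp (the last class is 8000 bp or more). Blue classes are under the 5000 bp limit and bars show exact 95% intervals. Right, the same percentage by class of the H3K4me3 score (1 lowest, 5 highest), for all peaks under 5000 bp and within 3 width classes (points from 20 or more peaks). Over all widths it goes from 2.90% to 20.6%, and at 2000 to under 3000 bp from 8.86% to 4.27%.

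The split regions were next set beside the 7194 acetylated H3K4me3 peaks that met every other condition but held 1 H3K9Ac peak. The split regions were wider (median 3539 against 2552 bp), and the comparison was made within width classes. At 3000 to under 4000 bp the 289 split regions had a median H3K4me3 score of 1161 (1114 to 1236) and the 1709 others one of 1097 (1072 to 1113). The stronger H3K9Ac peak of the split regions had a median score of 111.2 (102.9 to 115.2), against 117.4 (112.5 to 121.1) for the lone peak of the others. The largest H3K9Ac peak of a split region was narrower than the lone peak, at 1168 bp (1136 to 1206 bp) against 1299 bp (1262 to 1333 bp). Together the H3K9Ac peaks of the split regions covered more, 57.5% of the H3K4me3 width against 38.2%. The classes differ by rule in the number of H3K9Ac peaks, which itself leads to more cover. How much of the difference this gives was not tested. The stronger peak was also below the lone peak in median score at 2000 to under 3000 bp, with 94.1 (88.8 to 101.0) against 102.4 (99.4 to 104.9). At 4000 to under 5000 bp it scored 116.4 (110.6 to 124.8) against 128.5 (119.9 to 136.6). The score intervals overlap in each of the 3 classes.

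Acetylation of the split regions was spread more evenly about the H3K4me3 midpoint. At 3000 to under 4000 bp the middle of the acetylated stretch lay a median of 237.5 bp (201.5 to 278.5 bp) from the H3K4me3 midpoint, against 430.5 bp (412.5 to 453.5 bp) where there was a lone peak. At 4000 to under 5000 bp the medians were 471.8 and 713 bp. A longer stretch inside the same H3K4me3 width has less room to lie off centre, and how much of the difference that gives was not tested. At a position 25 bp before the midpoint, 77.9% of the split regions of 3000 to under 4000 bp were under H3K9Ac and 20.8% were in a gap. At 1025 bp before it the figures were 64.0% and 2.42%. Of the regions with a lone peak, 66.7% and 38.4% were under H3K9Ac at the same positions. The profile of the split regions of 3000 to under 4000 bp had a flat top between 2 shoulders. These were 82.7% at 675 bp before the midpoint and 85.5% at 375 bp after it. Over all 751 split regions the shoulder before the midpoint was not seen. H3K9Ac cover there was 74.8% at 675 bp before the midpoint, 77.4% at 25 bp before it and 79.6% at 375 bp after it.

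**Figure D4:**
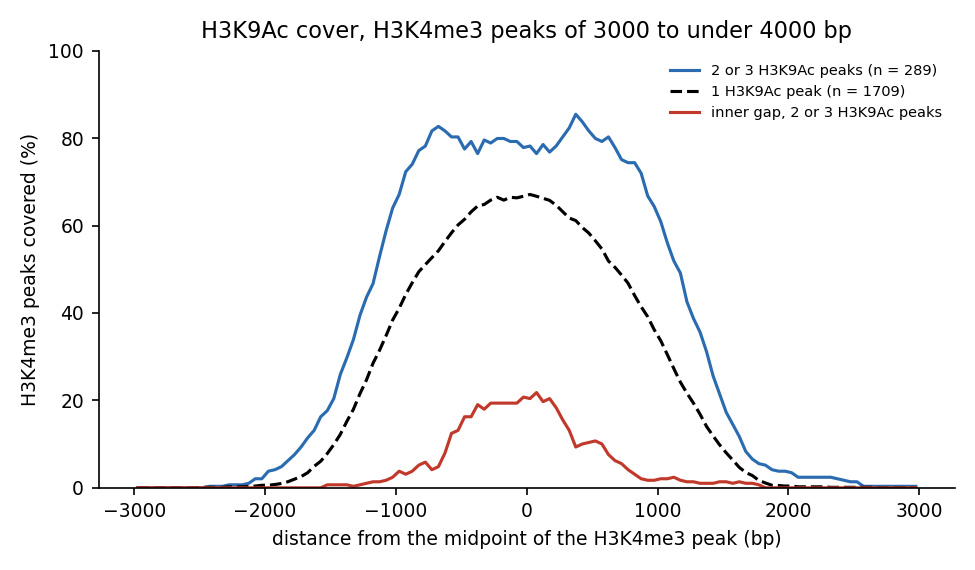
Percentage of H3K4me3 peaks of 3000 to under 4000 bp under H3K9Ac at each distance in bp from the H3K4me3 midpoint, in steps of 50 bp, for 289 split regions (blue) and 1709 with a lone H3K9Ac peak (dashed), with the percentage of split regions that are in an inner gap (red). The gap percentage peaks at 21.8%, 75 bp after the midpoint.

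H3K4me3 peaks of 5000 bp or more with 2 or more H3K9Ac peaks, 373 in number, had wider gaps, with a median of 518 bp (393 to 642 bp). These peaks are wider by rule, which leaves more room for a wide gap. They had a median H3K4me3 score of 2177 and a stronger H3K9Ac peak of median score 144.3 (135.3 to 154.3), while their weakest H3K9Ac peak, at 64.4 (61.7 to 66.6), was close to the 60.9 of the 751 regions. Here H3K9Ac covered 42.3% of the H3K4me3 width.

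The 3 regions nearest to the medians of width, gap and H3K4me3 score are near the middle of the set in those measures only. Their ratios of highest to lowest H3K9Ac score, 2.23, 2.12 and 1.93, lay above the median of 1.504 over the 751 regions, and 1 of them had 3 H3K9Ac peaks. At chr7:73940643-73944191 a weak H3K9Ac peak of 716 bp (score 56.5) was followed after 142 bp by one of 1481 bp (126.2). At chr3:276653664-276657107 the stronger block came first, with 1327 bp (200.4), a gap of 130 bp and then 993 bp (94.6). At chr2:189956463-189960007 there were 3 blocks, scoring 51.7, 94.5 and 99.8, with gaps of 159 and 184 bp.

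In the 5 regions with the widest gaps, H3K9Ac covered between 32.9% and 54.5% of the H3K4me3 width. At chr7:202550567-202555172 (H3K4me3 score 1531) a block of 784 bp at one edge and a block of 810 bp near the other were 2995 bp apart, with scores of 52.5 and 66.3. At chr8:45964350-45968437 the gap was 1722 bp and the blocks scored 65.5 and 177.5. At chr1:718288123-718291335 weak blocks of 57.1 and 53.4 were 1669 bp apart, and at chr3:490226239-490231161 blocks of 69.0 and 54.0 were 1641 bp apart. At chr5:203904634-203909538 the first 2 of 3 blocks (70.0 and 187.1) were 242 bp apart and the third (86.5) followed after 1717 bp. In 4 of these 5 regions the gap covered the midpoint, the exception being the last.

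**Figure D5:**
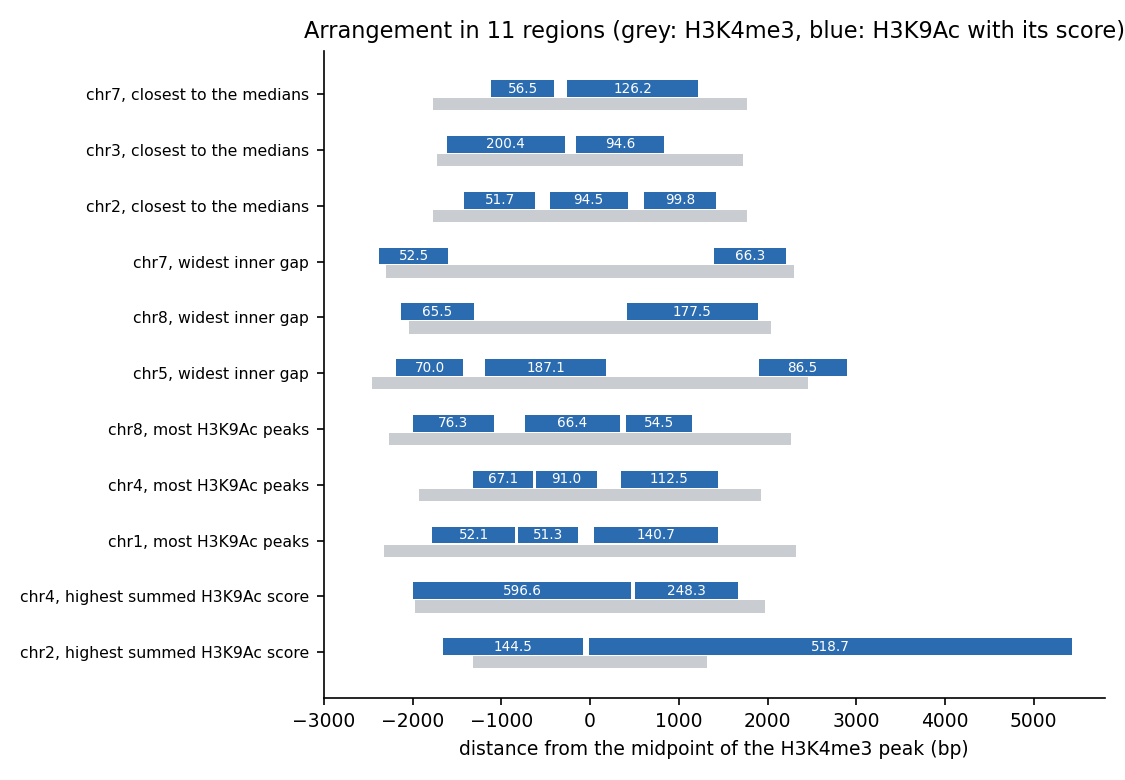
H3K4me3 peaks (grey) and their H3K9Ac peaks (blue, with score) in 11 regions, by distance in bp from the H3K4me3 midpoint. From top to bottom are the 3 regions closest to the medians, the 3 with the widest gaps (2995, 1722 and 1717 bp), the 3 highest H3K4me3 scores among regions with 3 H3K9Ac peaks, and the 2 highest summed H3K9Ac scores.

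In the 5 regions with the highest H3K4me3 scores of the set, the summed H3K9Ac score ran from 107.85 to 434.89. At chr4:337998548-338002891, whose H3K4me3 score of 3100 was the highest and a value at which many scores of the list pile up, blocks of 1519 and 1613 bp (210.1 and 175.1) were 21 bp apart. At chr3:403993907-403998597 (2960) the blocks scored 199.9 and 101.8 with a gap of 18 bp, and at chr3:30856270-30860978 (2942) they scored 275.3 and 159.6 with a gap of 45 bp. At chr4:62102779-62107210 (2876) the blocks scored only 55.6 and 52.3, near the lowest score of the list, and were 574 bp apart. At chr2:52202278-52206774 (2796) they scored 56.0 and 135.8 with a gap of 108 bp.

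In the 5 regions with the highest summed H3K9Ac score, the stronger block scored 2.40 to 4.32 times the weaker. At chr4:433938768-433942711 a block of 2460 bp scored 596.6 and its neighbour of 1165 bp, 40 bp away, scored 248.3. At chr2:155643407-155646050, with an H3K4me3 score of only 269.1, the stronger block ran far past the H3K4me3 edge, to chr2:155644717-155650158 (5442 bp, 518.7), and one of 1571 bp (144.5) lay 72 bp before it. The sums were 536.5 at chr3:423449186-423453058, 473.2 at chr4:414528195-414532755 and 459.9 at chr7:194184536-194189483, where the stronger block scored 2.45, 4.32 and 2.70 times the weaker.

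Pairs ranged from equal to very unequal. The most equal were at chr3:485125753-485129638 (89 and 89.1), chr2:494950260-494953963 (73.6 and 73.7) and chr4:345483590-345488541 (134.0 and 133.9). The most unequal was at chr1:594255645-594258216, where blocks of 399.3 and 55.9 were 27 bp apart, a ratio of 7.15. At chr1:151042601-151046260 the ratio was 6.12 with a gap of 44 bp, and at chr5:299963590-299966727 it was 6.003 with a gap of 9 bp. The weak member of these 3 pairs scored between 51.8 and 55.9.

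The 24 regions with 3 H3K9Ac peaks had a median H3K4me3 width of 4263 bp (3711 to 4636 bp) and a median score of 1408 (1185 to 1567). Their acetylated stretch measured a median of 3341 bp and their widest gap 310 bp (189 to 576 bp). The middle block had the highest score in 8 of the 24 and lay over the H3K4me3 midpoint in 16. At chr8:117660752-117665277, the highest in H3K4me3 score (2358), the blocks scored 76.3, 66.4 and 54.5. At chr4:121685394-121689240 (2202) they scored 67.1, 91.0 and 112.5, at chr1:372077972-372082607 (1892) 52.1, 51.3 and 140.7, and at chr1:9924616-9928948 (1822) 52.4, 149.9 and 50.8.

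The widest regions inside it were chr1:708178468-708183466 (4999 bp, gap 521 bp), chr2:123422718-123427714 (4997 bp, gap 105 bp) and chr8:189076342-189081336 (4995 bp, gap 177 bp). The narrowest outside were chr1:626312485-626317485 (5001 bp, gap 224 bp), chr6:61783228-61788236 (5009 bp, gap 962 bp) and chr2:251237415-251242425 (5011 bp, gap 692 bp).

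Of 1047 neighbouring H3K9Ac pairs on chromosomes 1 to 8 that were less than 500 bp apart, 650 (62.1%) lay in the split regions and 278 (26.6%) in the H3K4me3 peaks of 5000 bp or more. Another 56 (5.35%) shared an H3K4me3 peak with H3K27me3, 45 (4.30%) lay in different H3K4me3 peaks, and 18 (1.72%) had at least 1 peak outside H3K4me3. By the rule of choice, any pair inside 1 H3K4me3 peak under the width limit and without H3K27me3 counts as lying in a split region. The 751 regions took up 1524 different H3K9Ac peaks, 12.9% of the 11858 on these chromosomes. In 23 regions (3.06%, 1.95% to 4.56%) an H3K9Ac peak also reached another H3K4me3 peak.

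H3K9me3, which took no part in the choice, overlapped 4 of the 751 regions (0.533%, 0.145% to 1.36%), near the 0.484% of all H3K4me3 peaks on chromosomes 1 to 8 that it overlapped. It overlapped 15 of the 7194 regions with a lone H3K9Ac peak (0.209%, 0.117% to 0.344%). The 4 were chr6:72552002-72556131 (H3K9me3 score 59.8), chr4:3872202-3876850 (55.5), chr4:42662049-42665143 (52.1) and chr1:294989112-294993837 (51.0), in a list whose lowest score is 50.03 and whose median is 58.9. The nearest H3K27me3 peak was a median of 267840 bp away (238523 to 305353 bp), and 7 regions (0.932%, 0.376% to 1.91%) had one within 5 kb. For lone peaks the median was 232192 bp (221558 to 240716 bp), and 156 (2.17%, 1.84% to 2.53%) had one within 5 kb. Within classes of H3K4me3 width the intervals of the medians overlapped. Split and lone medians were 229332 and 227765 bp at 2000 to under 3000 bp. At 3000 to under 4000 bp they were 262086 and 241311 bp, and at 4000 to under 5000 bp 311452 and 274777 bp. The share within 5 kb was not compared within width classes.

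The nearest other split region was a median of 930420 bp away, and 8 of the 751 (1.07%) had one within 5 kb. Split regions were 3.40% of the H3K4me3 peaks on these chromosomes, and any other H3K4me3 peak lay within 5 kb of 159 (21.2%). Of these, the pair that starts at chromosome 3 position 231253434 was 1 bp apart and the pair that starts at chromosome 1 position 422341728 was 84 bp apart. Another H3K4me3 peak lay within 1 kb of 98 regions (13.0%, 10.7% to 15.7%), against 14.4% (13.6% to 15.2%) of those with a lone H3K9Ac peak. By chromosome, the split share of acetylated H3K4me3 peaks under the limit ran from 7.87% on chromosome 4 (87 of 1105, 6.35% to 9.62%) to 12.1% on chromosome 5 (62 of 511, 9.43% to 15.3%), with intervals that overlap. Density ran from 14.2 regions per 100 Mb on chromosome 7 to 29.0 on chromosome 2. The split shares there were close, at 9.61% of 385 acetylated peaks on chromosome 7 and 10.57% of 1485 on chromosome 2, with overlapping intervals.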

How the data were processed

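The series holds 8 ChIP-seq libraries and 4 deposited peak lists, 1 per mark. Chromatin was digested with micrococcal nuclease, per the labels' protocols. The submitters' processing notes list MACS 1.0.1, Bowtie 1.1.2 and CASAVA 1.7. For build, control, threshold and the combining of libraries, the steps were not given in the sources used here. The score of each peak is the authors' deposited value, with no stated formula. Overlap was counted from 1 bp, and starts are printed from 1. Width is end minus start as deposited. Inner gaps are the bases between neighbouring H3K9Ac peaks. Intervals are exact, at 95%. No test was made, since no value per sample exists. Planned comparisons with genes and sequence were not run, because no genome of the build was at hand. Regions were named by set rules: highest H3K4me3 score, highest summed H3K9Ac score, widest gap, most H3K9Ac peaks, closest to the medians, next to the width limit, overlapping H3K9me3, and most equal or unequal scores. Members and rules were chosen with earlier results of these data known. The scripts were tested on simulated data of 4000 planted peaks, where 7 of 7 planted quantities were recovered. Tools were scipy 1.17.1, pandas 2.3.3, numpy 2.4.6 and matplotlib 3.10.9 under Python 3.11.15.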

Additional observations from a re-analysis of the deposited data

Results flagged for a closer look

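On unplaced sequence (chrUn), which the report does not use, 8 of 125 acetylated H3K4me3 peaks met the same conditions on width, H3K9Ac and H3K27me3 (6.40%, exact interval 2.80% to 12.2%). They are listed because they lie in data outside the main measurement. The interval includes the 9.45% on chromosomes 1 to 8. On chromosome X none of 28 such peaks did, a count of 0 (upper limit of the exact interval 12.3%).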

How the results depend on the processing

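Each of 5 results was recomputed under 11 alternatives. The number of regions was 305 and 125 when H3K9Ac peaks less than 200 and 500 bp apart were joined, and 144 with the top-scoring 50% of H3K9Ac peaks, and stayed within 1.5 times 751 under the other 8. All 305, 125 and 144 were among the 751. Under the same 3 settings the median gap was 414, 739 and 125 bp, the share with a gap over the midpoint 36.7%, 60% and 11.1%, and the split share 3.84%, 1.57% and 3.02%. Joining removes narrow gaps by construction, and the weaker H3K9Ac peaks are mostly below the list's median. The median gap was 128 bp for widths under 4000 bp and 193 bp with no width limit, and the split share 7.19% and 12.9%. The split share was 11.1% with the top-scoring 50% of H3K4me3 peaks and 10.1% with H3K4me3 peaks less than 500 bp apart joined. The H3K9me3 share was 0% with H3K9Ac joined at 500 bp (upper limit 2.91%) and 1.39% with the top-scoring 50% of H3K9Ac. No paired analysis was possible because each list stands for its 2 libraries together, and for the same reason no replicate could be left out. Depth is unknown, so a break between H3K9Ac peaks is a stretch that the authors' list does not call, not one shown to lack acetylation.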
